A study of Mus musculus with 4 samples.

Results

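The interleukin-1 (IL-1) family is described here through 9 transcripts that were taken by gene symbol. The choice used no measured value but was made with earlier results of these data known. The 9 transcripts are the ligand genes Il1a, Il1b, Il18 and Il33, the antagonist gene Il1rn, and the receptor genes Il1r1, Il1r2, Il1rap and Il1rl1. All 9 were found in each of the 4 samples, among 32285 genes in the single-cell libraries and 19465 genes in the spatial sections.

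The study examined traumatic heterotopic ossification (HO), in which bone forms in soft tissue after burn/tenotomy (BT) injury, that is, a burn together with transection of the Achilles tendon. Unsorted cells of the tenotomy site were taken on day 7 from Hoxa11CreER;ROSA-LSL-TdTomato;Hif1a fl/fl mice that had received tamoxifen at 75 mg/kg daily for 5 days before surgery. Every mouse behind the cell libraries thus carries the same floxed Hif1a alleles, and the Cre is driven by Hoxa11. The study used this Cre to delete Hif1a in Hoxa11 lineage cells, so deletion may differ between the cell classes. Class and deletion cannot be told apart in the comparisons of cell classes below. The study describes Hoxa11 expression in embryos as highest in the zeugopod, the middle segment of a limb. Visium sections A1 and B1 came from wild-type C57BL/6 mice of 10 weeks, also on day 7 after BT. The cell data form 2 libraries, of which one pools replicates 1 and 2 (called the pooled library) and the other holds replicate 3. No library without Cre was analysed here, so neither the deletion nor an effect of genotype could be examined, and all comparisons are between cell classes or between tissue spots. The tests below set aside the overall difference between samples. Their p-values measure how far class differences vary between the libraries or between the sections, pooled over all classes. Nothing in the labels ties the sections to separate animals, and that spread may be technical.

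IL-1α and IL-1β signal through the receptor IL1R1 together with the accessory chain IL1RAP, and activate NF-kB in stromal, vascular and immune cells. IL-1 receptor antagonist (Il1rn) occupies IL1R1 without signalling, and IL1R2 is a decoy that binds the ligands but has no signalling domain. IL-33 is a nuclear alarmin of stromal and barrier cells that acts through ST2 (Il1rl1), whereas IL-18, like IL-1β, is released as a mature cytokine after caspase-1 cleavage. In injured tissue this system is known for the recruitment of neutrophils and monocytes.

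Il1a and Il1b, the ligand genes, Il1rn, the antagonist gene, and Il1r2, the decoy gene, were called higher in both neutrophils and macrophages below, so the 100 bases before each transcription start in the promoter table are shown, read 5′ to 3′ on the strand of the gene from RefSeq sequence (GRCm38.p6). Capitals mark matches, on either strand, to a TATA box (TATAAA), a PU.1 core (GAGGAA), an AP-1 site (TGANTCA), a C/EBP half-consensus (TTNNGNAA) or an NF-kB site (10 bases, opening with GGG and closing with CC, any base between).
Il1a (chr2:129309973-129310072, minus strand): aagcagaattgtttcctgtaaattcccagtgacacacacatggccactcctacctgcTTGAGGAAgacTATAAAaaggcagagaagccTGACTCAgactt
Il1b (chr2:129371140-129371239, minus strand): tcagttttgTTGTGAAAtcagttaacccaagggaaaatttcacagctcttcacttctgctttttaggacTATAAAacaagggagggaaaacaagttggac
Il1rn, first start (chr2:24336760-24336859, plus strand): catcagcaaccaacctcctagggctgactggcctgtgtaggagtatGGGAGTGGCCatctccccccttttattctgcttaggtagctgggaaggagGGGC
Il1rn, next start (chr2:24345191-24345290, plus strand): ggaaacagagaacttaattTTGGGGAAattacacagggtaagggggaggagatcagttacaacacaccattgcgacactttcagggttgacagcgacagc
Il1rn, last start (chr2:24345271-24345370, plus strand): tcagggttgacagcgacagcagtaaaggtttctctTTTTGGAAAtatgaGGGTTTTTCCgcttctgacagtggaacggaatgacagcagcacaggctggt
Il1r2 (chr1:40085993-40086092, plus strand): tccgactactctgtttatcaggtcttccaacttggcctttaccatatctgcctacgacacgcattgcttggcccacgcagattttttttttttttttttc
The ligand genes each held TATAAA, which began 32 bases before the start in Il1a and 31 bases before it in Il1b. The Il1a stretch also held GAGGAA, overlapped by TTNNGNAA, and TGANTCA 12 bases before the start, and the Il1b stretch held TTNNGNAA 91 bases before the start. Of the Il1rn stretches, the first held an NF-kB match 54 bases before the start and another that began 4 bases before it and ran past it. The next held TTNNGNAA 81 bases before its start, and the last held overlapping TTNNGNAA matches 65 and 64 bases and an NF-kB match 51 bases before its start. The Il1r2 stretch held none of the 5 motifs. It precedes the 1 start listed for Il1r2 in that table, whereas the annotation of GRCm38 opens the gene upstream of it, at position 40074079, and no other start was examined. Over the same 100 bases of 32851 promoter windows, 5.56% held TATAAA, 9.82% GAGGAA, 2.73% TGANTCA, 14.9% TTNNGNAA and 27.2% the NF-kB site. In the annotation of GRCm38, Il1a and Il1b lie 54.6 kb apart on chromosome 2, and Il1r2, Il1r1 and Il1rl1 follow each other on chromosome 1 with gaps of 99.8 kb and 112 kb.

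After filtering, 1415 cells of the pooled library (median 12198 UMIs, that is, counted transcript molecules) and 878 cells of replicate 3 (median 16045) remained, and the libraries shared 1 barcode. Cells were assigned to classes by marker genes, none of them a member of the family. The 10 leading genes of each class contained between 3 and 6 of its own markers and none of another class. MPCs and fibroblasts were separated by a score, and 90 of 771 mesenchymal cells lay near the boundary. Levels are CPM, counts scaled to a common total per sum, over the summed UMIs of a class in a library. Neutrophil sums were shallow, with 182250 UMIs from 43 cells of the pooled library and 84942 UMIs from 21 cells of replicate 3. The 9 classes with at least 20 cells in each library entered an edgeR fit, and each was compared with the mean of the other 8 on the log scale. Where a gene had no UMI in both libraries of some class, that mean has no fixed level, and only the call is given.

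Neutrophils carried the highest levels of the ligand Il1b, of the decoy Il1r2 and of the accessory chain Il1rap, and almost no Il1r1. Macrophages and dendritic cells came next for Il1b, and macrophages held Il1rn near the neutrophil level of the pooled library, also with almost no Il1r1. Signalling receptor transcripts lay instead in mural cells, fibroblasts, endothelial cells and MPCs (mesenchymal progenitor cells). Il33 was highest in fibroblasts, and Il1rl1 in mast cells, followed by fibroblasts and MPCs.

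**Figure D1:**
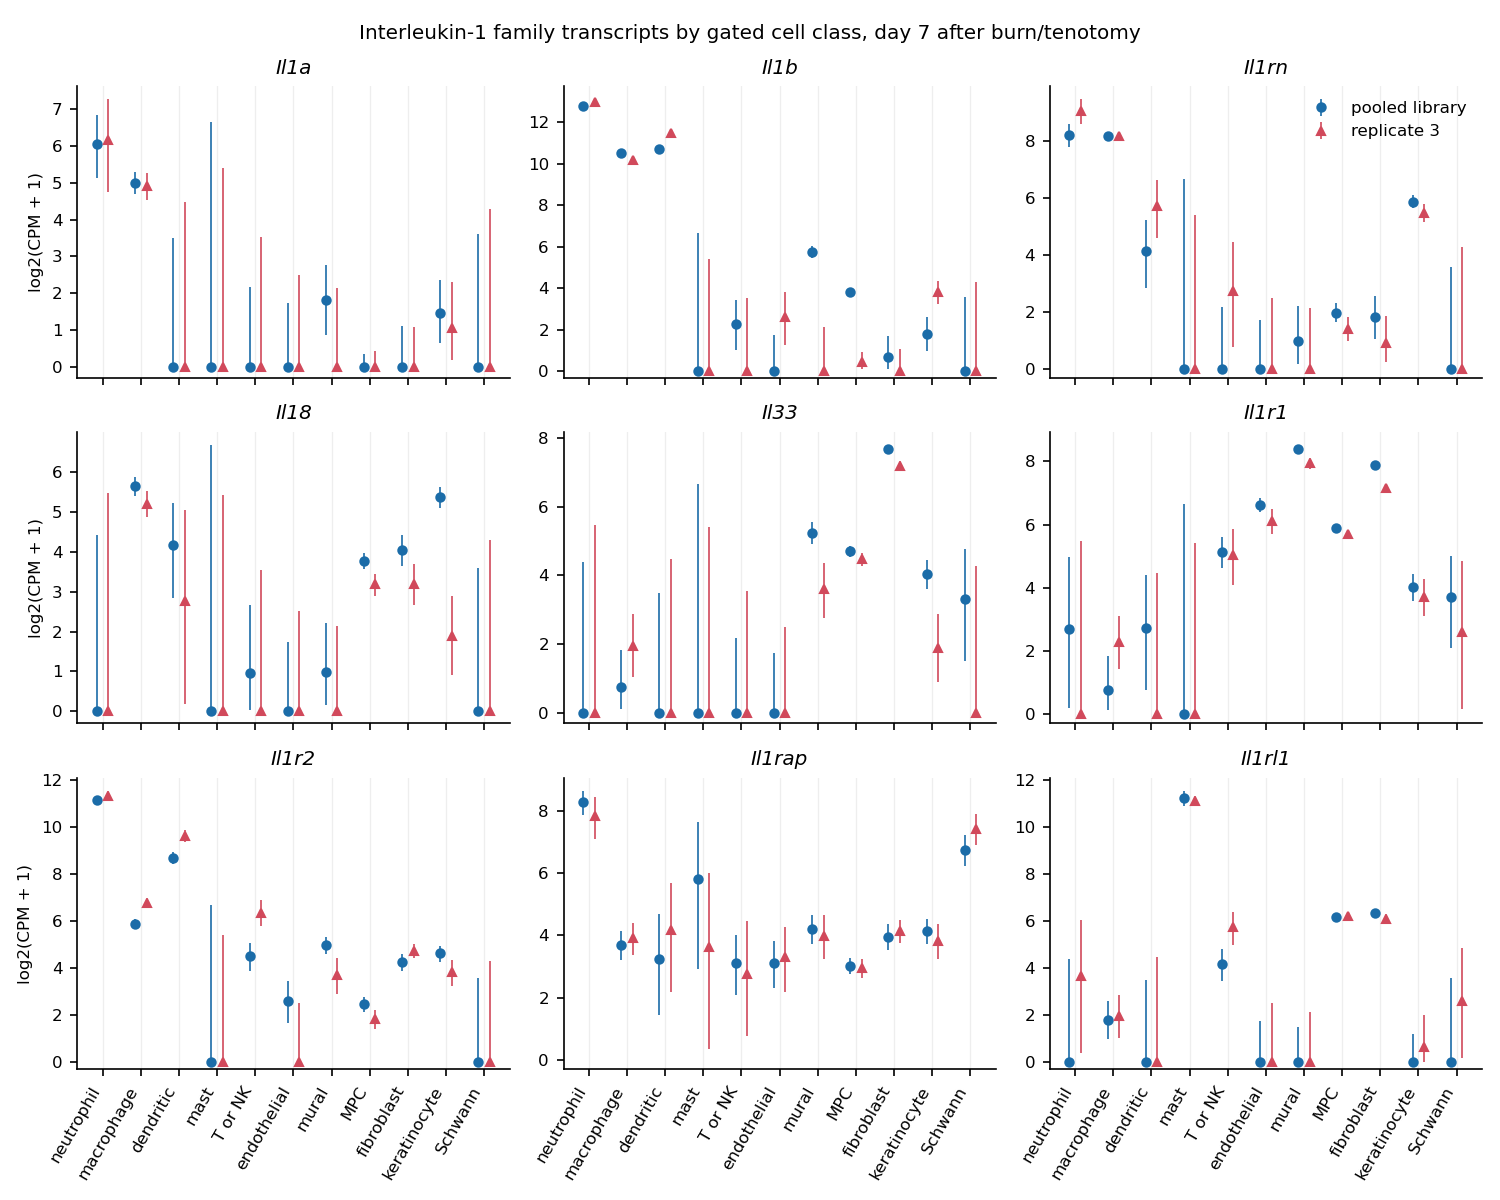
Levels of the 9 transcripts on the log2(CPM + 1) scale (vertical axes) in 11 gated cell classes (horizontal axis). Circles are the pooled library, triangles are replicate 3, and bars are exact 95% Poisson intervals of the counts. Il1b, Il1r2 and Il1rap stand highest in neutrophils, Il1r1 in mural cells and fibroblasts, Il33 in fibroblasts and Il1rl1 in mast cells.

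Il1b encodes the secreted cytokine IL-1β. In neutrophils Il1b reached 7078 CPM in the pooled library and 8005 CPM in replicate 3, and in macrophages 1475 and 1156 CPM. Dendritic cells (18 and 11 cells, too few to fit) held 1667 and 2833 CPM. No other gated class came near these 3 in either library. At least 1 Il1b UMI was seen in 93% and 95.2% of neutrophils (median depth 3748 and 4172 UMIs) and in 59% and 53.2% of macrophages (median depth 11418 and 13764 UMIs). In Schwann cells (median depth 5470 and 6508 UMIs) no cell of 39 or 22 had one, which allows levels of up to 9.05 and 15.1 CPM. Outside the myeloid classes Il1b was uneven. MPCs had 174 UMIs in 10 of 312 cells of the pooled library and 4 UMIs in replicate 3. Mural cells had 105 UMIs in 2 of 104 cells of the pooled library and 0 UMIs in replicate 3.

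Macrophages, the more numerous class, contributed most Il1b molecules. They gave 61.7% of all Il1b UMIs in the pooled library and 62.9% in replicate 3, neutrophils 19% and 17.9%, and dendritic cells 8.81% and 13%. Within macrophages the signal was concentrated, since the top 10% of cells held 59.9% and 69.9% of the Il1b UMIs. In neutrophils the corresponding shares were 27.8% and 33.8%.

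Il1a encodes IL-1α, an alarmin that is active without caspase cleavage. Il1a was measured at 65.8 and 70.6 CPM in neutrophils and 31 and 29 CPM in macrophages. These levels rest on 12 and 6 UMIs in neutrophils and 88 and 60 UMIs in macrophages. Keratinocytes followed at 1.76 and 1.09 CPM and mural cells at 2.5 and 0 CPM, and no Il1a UMI was counted in MPCs, fibroblasts, endothelial, Schwann or T or NK cells.

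Il1rn encodes the receptor antagonist. Neutrophils held 296 and 529.8 CPM, macrophages 292 and 290.0 CPM, and keratinocytes 57.9 and 43.7 CPM, while the other fitted classes stayed at or below 5.77 CPM. The pooled library gave nearly the same level in neutrophils and macrophages, and only replicate 3 set neutrophils higher. In keratinocytes Il1rn was higher in cells with suprabasal keratins (69.7 and 51.4 CPM) than in cells with basal keratins (12.1 and 8.97 CPM). Of all Il1rn UMIs, macrophages gave 74.6% and 78.2%.

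The balance of antagonist to ligand differed between the classes. Il1rn made up 4.02% (95% exact binomial interval 3.03 to 5.21) and 6.21% (4.56 to 8.22) of the Il1rn plus Il1b UMIs in neutrophils. In macrophages the share was 16.5% (15.5 to 17.6) and 20.1% (18.6 to 21.5). Dendritic cells were at 0.995% and 1.79%, and keratinocytes at 95.9% and 76.9%. In replicate 3, 22 of the 24 Il1b UMIs of keratinocytes lay in 1 cell, so the lower share there depends on that cell. The intervals of these 4 classes overlapped in neither library, and they cover counting error only.

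**Figure D2:**
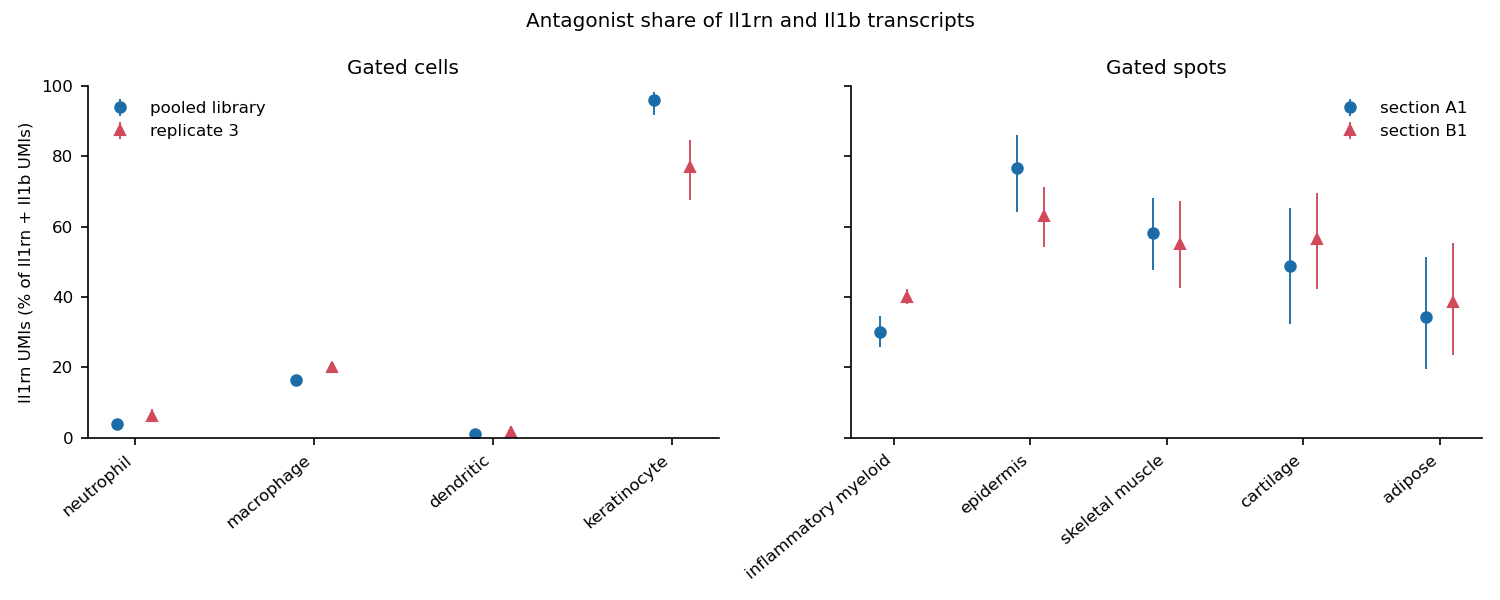
Il1rn UMIs as a percentage of Il1rn plus Il1b UMIs (vertical axis) in gated cells (left) and gated Visium spots (right). Circles are the pooled library or section A1, triangles replicate 3 or section B1, and bars are exact 95% binomial intervals. Neutrophils lie at 4.02% and 6.21%, macrophages at 16.5% and 20.1%, keratinocytes at 95.9% and 76.9%, and inflammatory myeloid spots at 30.1% and 40.1%.

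Il18 and Il33 had other sources. Il18 was at 48.7 and 35.8 CPM in macrophages, 15.5 and 8.11 CPM in fibroblasts, and 12.7 and 8.05 CPM in MPCs, with no UMI in neutrophils. Keratinocytes held 40.2 CPM of Il18 in the pooled library but 2.73 CPM in replicate 3, where the value rests on 5 UMIs. Il33 was at 203 and 145 CPM in fibroblasts, 5.49- to 13.1-fold above mural cells (37 and 11.1 CPM). MPCs held Il33 at 25 and 21.1 CPM, so that mural cells and MPCs could not be ordered, and neutrophils, endothelial and T or NK cells had none.

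Il1r1 encodes the signalling receptor for both IL-1 ligands. Il1r1 was highest in mural cells, the pericytes and smooth muscle around vessels, at 337 and 246 CPM. Fibroblasts held 238 and 142 CPM, endothelial cells 98 and 68.4 CPM, MPCs 58.3 and 50.8 CPM, and T or NK cells 34.2 and 31.8 CPM. This order was the same in both libraries, although the fibroblast value of the pooled library almost reached the mural value of replicate 3. At least 1 Il1r1 UMI was found in 83.7% and 78.6% of mural cells, against 0.797% and 4.26% of macrophages. With cells thinned to 2000 UMIs, and shallower cells left out (4 and 2 mural cells, 28 and 10 macrophages), the shares were 42% and 25.9% of mural cells, against 0% and 0.763% of macrophages. Neutrophils had 1 Il1r1 UMI in the pooled library and 0 in replicate 3, where 3 UMIs would have been 35.3 CPM.

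Il1r2 encodes the decoy receptor. Neutrophils held 2233 and 2543 CPM of Il1r2, dendritic cells 408 and 787 CPM, and macrophages 57.8 and 108 CPM. T or NK cells, at 21.8 and 80.8 CPM, overlapped with macrophages. Nearly every neutrophil with Il1b also had the decoy, since both transcripts were seen in 39 of 43 and 19 of 21 cells. Of Il1r1 plus Il1r2 UMIs, Il1r2 took 99.8% in neutrophils of the pooled library and all 216 UMIs in replicate 3, and 98.8% and 96.6% in macrophages. The same share was 8.29% and 4.68% in mural cells, 7.18% and 4.75% in MPCs, and 7.03% and 15.4% in fibroblasts.

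Il1rap encodes the chain that IL1R1 and ST2 both need to signal. Il1rap was at 307 and 224 CPM in neutrophils and at 106 and 171 CPM in Schwann cells, the glia of peripheral nerves. The other 7 fitted classes lay between 5.77 and 17.5 CPM. Schwann cells with this level had little Il1r1 (12.1 and 5.02 CPM, from 4 and 1 UMIs) and no Il1r2.

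Il1rl1 encodes ST2, the receptor for IL-33. Mast cells (9 and 14 cells, too few to fit) held 2367 and 2206 CPM, and ST2 is a standard surface protein of this lineage. Fibroblasts were at 79.8 and 67.3 CPM and MPCs at 70.2 and 72.6 CPM, ranges that overlap. MPCs gave 70.8% and 61.9% of all Il1rl1 UMIs. They were the most numerous class and also had the highest median depth (44984 and 47842 UMIs per cell). T or NK cells varied, with 17.1 CPM in the pooled library and 52 CPM in replicate 3. In the few T or NK cells with a Foxp3 UMI, a marker of regulatory T cells, Il1rl1 was at 202 and 71 CPM (8 and 6 cells, of which 2 in each library had an Il1rl1 UMI), against 1.03 and 47.1 CPM in those without. In replicate 3 the intervals of these levels overlapped (23 to 166 CPM against 25.1 to 80.5 CPM).

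The tests against the mean of the other classes gave these calls at an adjusted p under 0.05 (edgeR, Benjamini-Hochberg over 13153 genes). In neutrophils 5 of 9 members were called higher (Il1a, Il1b, Il1rn, Il1r2 and Il1rap), where 10.3% of all genes tested were called higher. Il1r1 was called lower there (log2 difference -3.36 ± 1.00 SE, adjusted p = 0.018), beside 15.7% of all genes. In macrophages 5 members were called higher (Il1a, Il1b, Il1rn, Il18 and Il1r2) against a background of 25.7%, and Il1r1 was called lower (-4.02 ± 0.71, adjusted p = 1.71e-04) against 5.54%. The calls of the 2 myeloid classes shared Il1a, Il1b, Il1rn and Il1r2, while Il1rap was called in neutrophils and Il18 in macrophages, and the classes are tested against each other below.

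Among the stromal and vascular classes, Il1r1 was called higher in all 4. The log2 difference was 3.80 ± 0.18 in mural cells (background 23.6%), 3.28 ± 0.18 in fibroblasts (29.9%), 1.69 ± 0.24 in endothelial cells (20.3%) and 1.28 ± 0.22 in MPCs (34.3%). Il33 was also called higher in mural cells, fibroblasts and MPCs, and Il18 and Il1rl1 in fibroblasts and MPCs, which gives 4 of 9 members higher in each of the last pair, not far above their backgrounds. No member was called lower in mural cells (background 5.6%) or fibroblasts (6.29%), and 0 members had an unadjusted p under 0.05 in that direction there. Il1rap was called lower in MPCs (-1.66 ± 0.21, background 9.84%), in endothelial cells (-1.68 ± 0.33, 5.26%) and in T or NK cells (-1.79 ± 0.41, 9.66%).

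Keratinocytes were called higher for Il1rn, Il18 and Il33 (background 29.1%), and 0 members were called lower (background 11.9%), with 1, Il1r1, at an unadjusted p under 0.05. The Il33 level came mainly from the pooled library, at 15.5 CPM against 2.73 CPM in replicate 3. In replicate 3 alone, with no fit, its log2(CPM + 1) less the mean of the other classes was -0.25. That measure differs from the fitted log2 difference. Schwann cells were called higher for Il1rap (2.68 ± 0.26, adjusted p = 2.98e-07, background 14.2%) and lower for Il1r1 (-2.07 ± 0.66) and Il1r2 (background 4.71%). T or NK cells were called higher for Il1rl1 (background 19.3%). The Schwann call for Il1r1 was lost with clusters in place of gates (adjusted p = 1).

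Neutrophils were set directly against macrophages, since both produce the ligands. Neutrophils were higher in 2 of 9 members, the decoy Il1r2 and the accessory chain Il1rap, where 4.61% of all genes were called higher. For Il1r2 the ratio was 38.6 in the pooled library and 23.5 in replicate 3 (log2 difference 4.57 ± 0.43, adjusted p = 1.39e-06). For Il1rap the ratio was 25.6 and 16 (4.17 ± 0.32, adjusted p = 8.58e-08). Both stood well apart from the median of all genes, which was -1.21 in this comparison.

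Il1b was 4.8- and 6.92-fold higher in neutrophils than in macrophages, yet the difference did not pass (2.22 ± 0.81, adjusted p = 0.0613). It passed with DESeq2 size factors (adjusted p = 0.03), a stricter gate (0.0327), without marked doublets (0.0426) and without the low-count filter (7.48e-13), so its position relative to the threshold depended on the processing. Il1rn differed by 0.12 ± 0.29 and Il1a by 0.89 ± 0.53, and neither passed. Il18 was called lower (background 15.8%), with 0 UMIs in neutrophils and 138 and 74 UMIs in macrophages. At the floor of 3 UMIs per library, Il18 was at least 2.96- and 1.01-fold higher in macrophages, and the call was lost under 4 alternatives.

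Other genes of the system showed where neutrophils and macrophages parted. Of 7 tested other IL-1 family genes, 2 were higher and 1 was lower in neutrophils. Il1f9, which encodes IL-36γ, was at 274 and 424 CPM in neutrophils against 0 and 0.967 CPM in macrophages. Il18rap, a chain of the IL-18 receptor, was at 143 and 118 CPM in neutrophils against 2.47 and 4.83 CPM in macrophages. Il18bp, the soluble inhibitor of IL-18, had 0 UMIs in neutrophils and 38.4 and 12.6 CPM in macrophages.

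Of 11 tested genes of IL-1 processing, 2 were higher and 2 lower in neutrophils. Nlrp3, the inflammasome sensor, was at 922 and 1107 CPM in neutrophils against 235 and 264 CPM in macrophages (log2 difference 1.70 ± 0.31). Txnip, a thioredoxin inhibitor that can bind NLRP3, was at 1097 and 1342 CPM against 121 and 111 CPM (3.09 ± 0.22). Capn2, a calpain subunit, was lower in neutrophils (-3.50 ± 0.67). Casp1, which encodes the protease that cleaves pro-IL-1β, was singled out after its values were seen, at 27.4 and 11.8 CPM in neutrophils against 39.8 and 29 CPM in macrophages, and was not called.

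Of 23 receptor signalling genes, 2 were higher and 3 lower in neutrophils, Irak2 being higher (154 and 283 CPM in neutrophils against 67 and 50.3 CPM in macrophages) and the kinase genes Irak1 (-2.29 ± 0.58) and Ikbkb (-1.13 ± 0.36) lower. Of 25 IL-1 and NF-kB target genes, 5 were higher and 4 lower. The chemokine gene Ccl7 had 1 UMI in all neutrophils together, against 821 and 915 CPM in macrophages. Lcn2, which was also a neutrophil gate marker, was higher, and Vcam1, an adhesion molecule, was lower with no UMI in neutrophils. The median over these targets was -0.01 beside -1.21 for all genes. Of 16 immediate early and heat shock genes, which rise during tissue digestion, 1 was higher and 9 were lower in neutrophils, among them Fos (-2.07 ± 0.28), Hspa1a (-4.79 ± 0.85) and Hspa1b. Their median was -1.21, equal to that of all genes, and their part in the results was not tested.

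MPCs were set against fibroblasts as the 2 mesenchymal classes, both with Il1r1. MPCs were lower in 4 of 9 members, Il33, Il1r2, Il1r1 and Il1rap (background 7.41%), and higher in 0 (background 4.14%; 1 member, Il1b, had an unadjusted p under 0.05). Il33 was at 25 and 21.1 CPM in MPCs against 203 and 145 CPM in fibroblasts (-2.92 ± 0.31, adjusted p = 1.53e-05). Il1r1 was at 58.3 and 50.8 CPM in MPCs against 238 and 142 CPM in fibroblasts (-1.78 ± 0.21, adjusted p = 1.67e-05). In both genes the libraries of the 2 classes did not overlap.

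Il1r2 was at 4.51 and 2.53 CPM in MPCs against 18 and 25.8 CPM in fibroblasts (-2.62 ± 0.49, adjusted p = 0.00147). Il1rap was at 7.1 and 6.69 CPM in MPCs against 14.5 and 16.5 CPM in fibroblasts (-1.19 ± 0.26, adjusted p = 0.00434). Il1rl1 (-0.07 ± 0.23) and Il18 (-0.17 ± 0.45) did not pass. The IL-1 receptor chains and the decoy were thus lower in MPCs, in both libraries. DESeq2 also called 0 members higher in MPCs.

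The MPC gate was not uniform for these genes. MPCs without a UMI of the tendon genes Scx, Tnmd or Mkx (42 and 37 cells) held Il33 at 119.6 and 75.8 CPM and Il1r1 at 132 and 161 CPM. MPCs with such a UMI (270 and 201 cells) held Il33 at 18.9 and 17.2 CPM and Il1r1 at 53.6 and 42.9 CPM. For both genes the cells without a tendon gene lay closer to the fibroblast levels. Scx, Tnmd and Mkx are markers in the MPC score, so this split is not independent of the gate. The cells without them were also shallower, with 819552 and 738376 UMIs in all, against 12694092 and 10315381 UMIs. The part of gate and depth was not tested. Single fibroblasts often carried both a receptor and an alarmin, with Il1r1 and Il33 UMIs together in 64 of 117 and 50 of 104 cells. Il1r1 and Il1rl1 were seen together in 65 of 312 and 52 of 238 MPCs.

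Other pathway genes were read from the same comparison. Of 25 NF-kB target genes, 13 were lower and 2 higher in MPCs, with a median log2 difference of -1.36 beside 0.01 for all genes. Il6, an inflammatory cytokine, was at 15 and 23.1 CPM in MPCs against 272 and 227 CPM in fibroblasts (-3.75 ± 0.30). Mmp3, a matrix protease, was at 40 and 20.8 CPM in MPCs against 272 and 673 CPM in fibroblasts (-3.87 ± 0.37). Ccl20 was among the higher ones, with 13.8 and 2.17 CPM in MPCs and no UMI in fibroblasts.

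The remaining lists had fewer calls. Of 7 other family genes 1 was lower, Il1rl2, the IL-36 receptor (-1.44 ± 0.23). Of 11 processing genes 3 were lower, Casp4 (-1.87 ± 0.32), Casp1 (-1.43 ± 0.42) and Capn1 (-0.72 ± 0.22). Of 23 signalling genes 3 were lower, Irak3, a brake on receptor signalling (-1.71 ± 0.27), Nfkb1 (-1.37 ± 0.22) and Peli1 (-0.93 ± 0.19). Of 16 immediate early and heat shock genes 3 were lower, Junb (-1.15 ± 0.25), Zfp36 and Dnajb1. Each named gene had the same direction in both libraries.

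Within macrophages, cells on the MHC class II side had more Il1b (2107 and 1563 CPM) than cells on the Mrc1 side (739 and 857 CPM). Il1r2 followed at 100.3 and 226 CPM against 8.39 and 21.8 CPM, while Il1a ran the other way, at 10.5 and 10.3 CPM against 54.9 and 42.8 CPM. The Il1a levels rest on few cells, with 16 and 9 UMIs in 8 and 5 cells against 72 and 51 UMIs in 10 and 14 cells. Il1rn varied less, at 339.6 and 331 CPM against 237 and 260.2 CPM. Among T or NK cells, those with a Trdc UMI, a γδ T cell receptor gene, held Il1r1 at 96.9 and 48.7 CPM, against 13.8 and 16.5 CPM in those without. No test was run within classes.

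Genes most alike in level to a member over the 18 sums of class and library were listed by Pearson r of log2(CPM + 1). These points share 2 libraries and differ in depth, so r is only a description. Il1b was most like Clec4e (r = 0.974), Igsf6 (0.970) and Slc7a11 (0.961), and Il1a like Btk (0.983) and Clec4e (0.980). Il1rn was most like Prkcd (0.941), Il1r2 like Apobr (0.918) and Birc3 (0.906), and Il18 like Hpgd (0.892). Il33 was most like Vit (0.966) and Podn (0.944), Il1r1 like Rasd1 (0.908), Il1rap like 4933423P22Rik (0.926) and Il1rl1 like Miat (0.890).

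The Visium sections held 3555 spots with 2259744 UMIs in A1 and 3195 spots with 2308754 UMIs in B1, counted with a probe set from fixed tissue. A spot covers several cells, so a lower level may mean fewer cells of a type or less RNA per cell, and the data cannot tell these apart. Over whole sections, Il1b gave 643 UMIs in A1 and 1878 in B1, and Il1rn 550 and 1658. Il1r1 gave 312 and 278 UMIs, Il1r2 92 and 235, and Il1rap 69 and 134. The remaining 4 members had between 18 and 106 UMIs per section. Il18, Il33 and Il1rl1 were too low for the filter and were not tested in spots, so 6 of 9 members were tested.

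Spots were gated by markers in the spot and its neighbours, again without a member of the family. Inflammatory myeloid spots numbered 48 in A1 and 188 in B1. Their gate used neutrophil and monocyte genes such as S100a8, S100a9 and Csf3r, and they held 1.73% and 2.1% of their UMIs in the markers of that gate, against 0.0446% and 0.0277% in wound mesenchyme spots (30 and 28 spots). They formed 6 patches in A1, the largest of 31 spots, and 5 patches in B1, the largest of 66 spots. In A1 the largest patch held 96.4% of the Il1b UMIs of the gate, so its values describe essentially 1 site, whereas in B1 the largest held 42.6%.

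**Figure D3:**
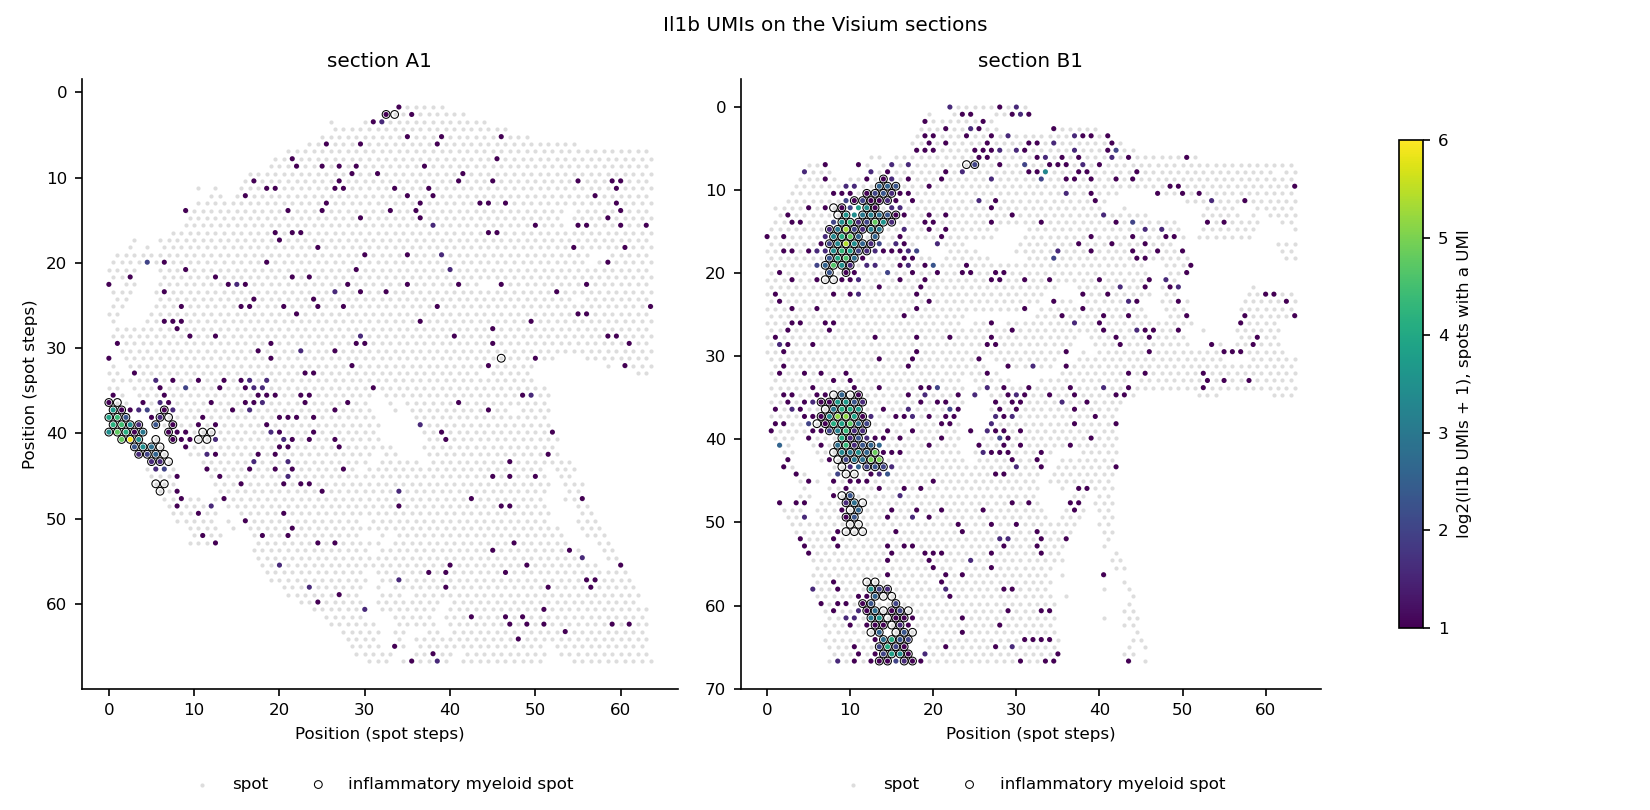
Il1b in the Visium sections A1 (left) and B1 (right), with positions in spot steps on both axes. Grey points are spots without an Il1b UMI, coloured points show log2(UMIs + 1), and black rings mark inflammatory myeloid spots. The gate holds 47.6% of the section's Il1b UMIs in 1.37% of the spots of A1 and 62% in 5.9% of the spots of B1.

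Inflammatory myeloid spots stood apart in Il1b, Il1rn, Il1r2, Il1rap and Il1a but not in Il1r1. Il1b was at 8548 CPM in A1 and 7257 CPM in B1, while no other fitted class exceeded 384 CPM. Il1rn was at 3687 and 4857 CPM, against at most 451 CPM elsewhere. Il1a was at 112 and 256 CPM, from 4 and 41 UMIs. Il1r2 was at 1285 and 916 CPM, and the gate held 50% and 62.6% of all its UMIs. By contrast, the gate held 0.641% and 1.8% of the Il1r1 UMIs of the sections, from 2 and 5 UMIs, and its share of spots was 1.37% and 5.9%.

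Against the mean of the other 7 classes, inflammatory myeloid spots were called higher for Il1b (log2 difference 6.33 ± 0.15) and Il1rn (4.98 ± 0.16), where 17.8% of 3626 genes were called higher (edgeR). Il1r2 (6.12 ± 0.30), Il1a (4.91 ± 0.58) and Il1rap (4.86 ± 0.43) were also past the threshold. These 3 reached the level of the low-count filter, 102 CPM, in no other fitted class, so they were tested only because they were high in this one, and their calls add nothing to their levels. Il1r1 did not pass (-0.69 ± 0.58, adjusted p = 0.438), and 0 members were called lower (background 7.45%). The lowest level of each of the 5 in this class lay above the highest level of any other fitted class, as the plot by spot class shows. For Il1a, however, the A1 interval (30.4 to 286 CPM) overlapped that of epidermis in B1 (46.2 to 136 CPM).

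**Figure D4:**
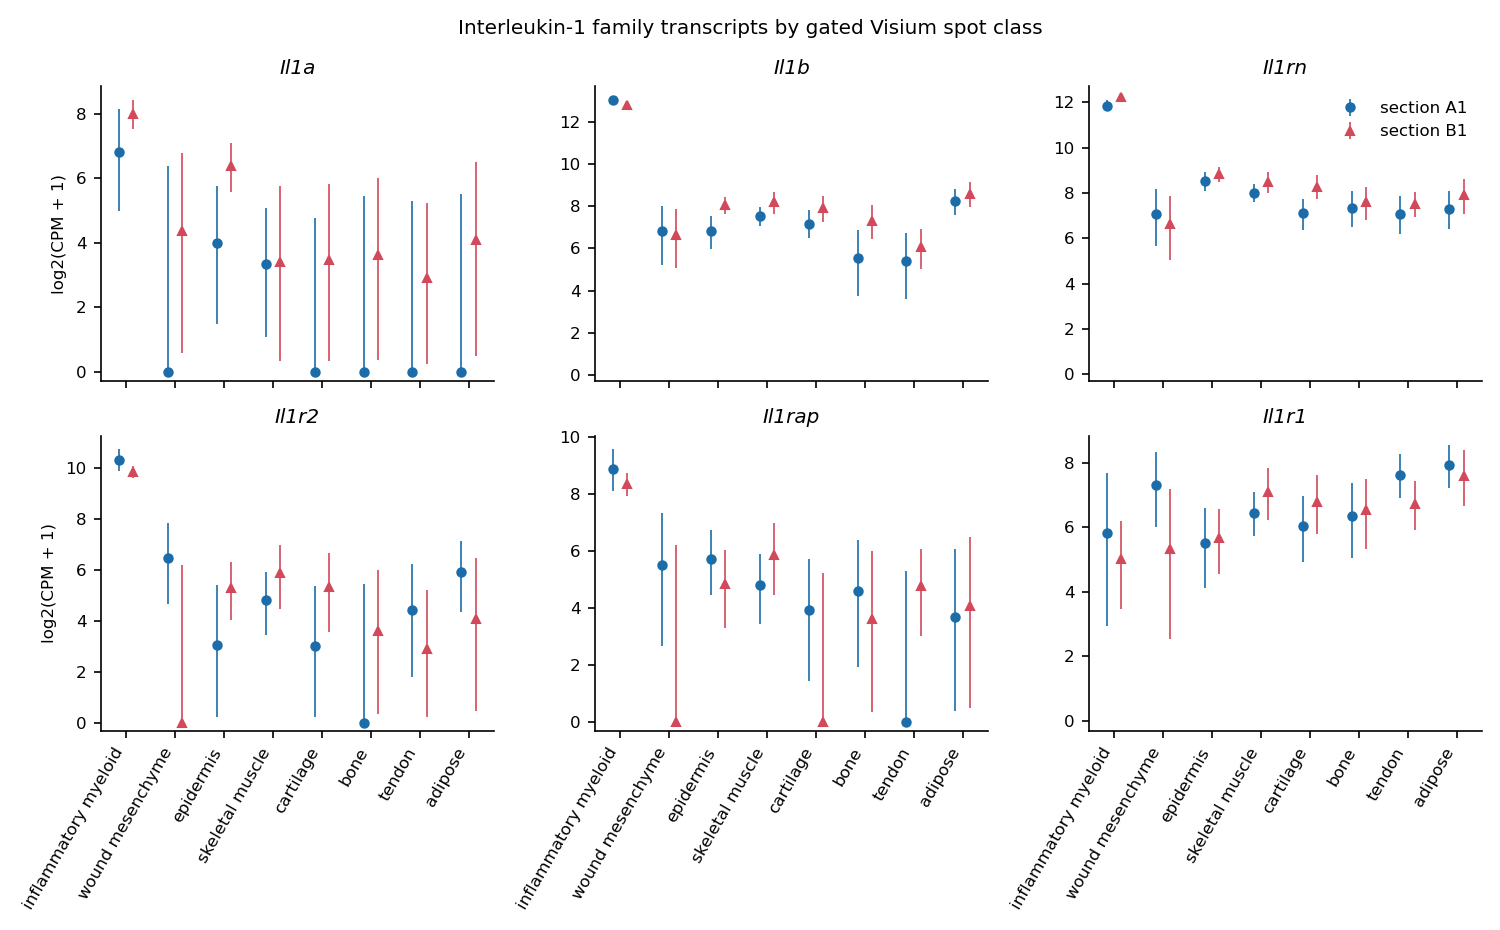
Levels of the 6 tested transcripts on the log2(CPM + 1) scale (vertical axes) in 8 gated spot classes (horizontal axis). Circles are section A1, triangles section B1, and bars exact 95% Poisson intervals. Il1b lies at 8548 and 7257 CPM in inflammatory myeloid spots, whereas Il1r1 is highest in adipose spots at 240.2 and 192 CPM.

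The planned pair set inflammatory myeloid spots against wound mesenchyme spots, a class gated on genes such as Postn and Cthrc1. Il1b was at 8548 and 7257 CPM in inflammatory myeloid spots against 111 and 98.8 CPM in wound mesenchyme spots, 76.7- and 73.4-fold higher (6.90 ± 0.36, adjusted p = 3.54e-22). Il1rn was at 3687 and 4857 CPM against 134 and 98.8 CPM (5.90 ± 0.36, adjusted p = 1.23e-19). Il1r2 was at 1285 and 916 CPM against 89.1 and 0 CPM, at least 15.5-fold higher in B1. The calls for Il1b and Il1rn stand beside a background of 14.4%. Il1r2, Il1a and Il1rap were past the threshold too, again as members that this class alone brought through the filter, and 0 members were called lower (background 7.31%), with 0 at an unadjusted p under 0.05 in that direction.

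Il1r1 was at 55.9 and 31.2 CPM in inflammatory myeloid spots against 156 and 39.5 CPM in wound mesenchyme spots (-0.54 ± 0.79, adjusted p = 0.691). With 2 and 5 UMIs against 7 and 2 UMIs, a difference in Il1r1 was not detectable at this depth. The macrophage genes Csf1r (112 and 87.3 CPM, against 156 and 138 CPM) and C1qa (168 and 24.9 CPM, against 201 and 316 CPM) were not above their wound mesenchyme levels in either section. Of the other macrophage genes, Mrc1 (0 and 49.9 CPM, against 0 and 19.8 CPM) and Adgre1 (0 and 12.5 CPM, against 0 and 0 CPM) had no UMI in either class of A1. In B1 both were nominally higher, but all these values lay under the floor of 59.3 CPM of wound mesenchyme spots. A difference in Mrc1 or Adgre1 could thus not be read. Of 9 NF-kB targets 6 were higher in inflammatory myeloid spots, with a median of 2.48 beside -0.02 for all genes. Ptgs2, the inducible cyclooxygenase, was at 1788 and 2637 CPM against 178 and 79.1 CPM (4.83 ± 0.38), and the neutrophil chemoattractant Cxcl3 was at 1173 and 2637 CPM against 0 and 39.5 CPM (7.27 ± 0.53).

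Csf3, the growth factor for neutrophils, was at 168 and 349 CPM in inflammatory myeloid spots and had no UMI in wound mesenchyme spots. Of 5 processing genes 2 were higher, Nlrp3 (419 and 405 CPM, no UMI in wound mesenchyme spots) and Txnip (3.32 ± 0.60), and Capn2 was lower (-1.93 ± 0.53). Of 10 signalling genes 2 were higher, Irak2 (2.85 ± 0.82) and the adaptor Myd88 (2.27 ± 0.81), and of 2 other family genes 1 was higher, Il1f9 (3.24 ± 0.76). Beside these, 12 of 13 immediate early and heat shock genes were higher, with a median of 4.97, among them Junb (5.78 ± 0.31), Egr1 (5.78 ± 0.41) and Atf3 (6.05 ± 0.86). Their part in the differences was not tested.

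Elsewhere in the sections few members were called. Il1a was higher in epidermis, at 14.8 and 82.5 CPM (2.03 ± 0.67, adjusted p = 0.0159, background 16.8%). That call rests on 2 UMIs in A1, under the floor of 22.2 CPM, and 15 UMIs in B1, of which 8 lay in 1 spot. Il1r1 was higher in adipose spots, at 240.2 and 192 CPM (1.29 ± 0.38, adjusted p = 0.0471, background 2.1%), a call that was lost under 3 alternatives. Il1b was lower in tendon spots (41.4 and 65.6 CPM, -2.62 ± 0.36, background 2.15%), in wound mesenchyme spots (-1.56 ± 0.42, background 1.38%) and in bone spots (-1.47 ± 0.35, background 1.68%). Il1rn was lower in wound mesenchyme (-1.76 ± 0.40) and tendon spots (-1.22 ± 0.28). No member was called higher in wound mesenchyme (background 2.7%), skeletal muscle (3.31%), cartilage (2.29%), bone (3.94%) or tendon spots (4.38%). None was called lower in epidermis (14.5%), skeletal muscle (1.08%), cartilage (0.745%) or adipose spots (0.717%). At an unadjusted p under 0.05 these counts were 0 higher, and 1 lower in epidermis, 0 in skeletal muscle, 2 in cartilage and 1 in adipose spots. All these means include the inflammatory myeloid class.

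Distance from the inflammatory myeloid spots was followed in steps from spot to neighbouring spot. Il1b was at 8548, 762, 429, 117, 152 and 137 CPM in A1 at 0, 1, 2, 3 to 4, 5 to 8 and 9 or more steps. In B1 it was at 7257, 1530, 536, 358, 345 and 234 CPM. Most of the drop thus came within the first step. In B1 the level was nominally lower at each further distance. The intervals at 3 to 4 steps (286 to 442 CPM) and 5 to 8 steps (291 to 405 CPM) overlapped. That order was not kept when shallower spots were left out, as given below. The gate selects spots by neutrophil and monocyte markers, so the drop at its edge is not independent of that selection.

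Il1r1 did not fall with distance. In A1 it was at 55.9 CPM in the gate, 166 and 71.4 CPM at 1 and 2 steps, and 109.7, 133 and 145 CPM further out. In B1 it was at 31.2, 48.2, 55.9, 91.5, 119.6 and 146 CPM over the same distances. The values within 2 steps rest on 2 to 5 UMIs each. In B1 the interval in the gate (10.1 to 72.7 CPM) lay below that at 9 or more steps (126 to 168 CPM), and in A1 the same intervals overlapped. Il1rn and Il1r2 fell with distance as Il1b did, Il1rn to 173 and 288 CPM and Il1r2 to 15.2 and 31.3 CPM at 9 or more steps.

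**Figure D5:**
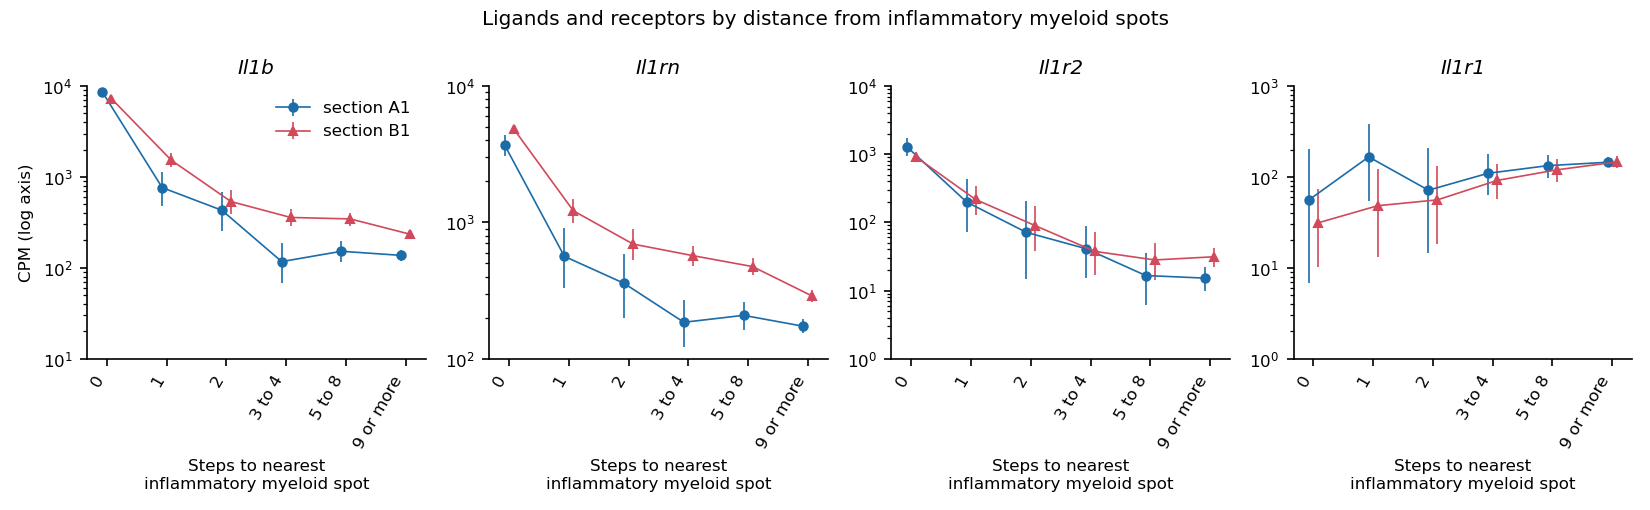
CPM (vertical axes, log scale) of 4 transcripts by the number of steps to the nearest inflammatory myeloid spot (horizontal axis), with 0 for the gate itself. Circles are section A1, triangles section B1, and bars exact 95% Poisson intervals. Il1b drops from the gate to the first step, to 762 and 1530 CPM, while Il1r1 at 9 or more steps reaches 145 and 146 CPM.

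Moran's I, a score of how far neighbouring spots share a gene's level, was deposited with the sections. Il1b had a score of 0.227 in A1 (rank 12 of 19132 genes) and 0.376 in B1 (rank 9 of 19222). Il1rn (0.0979 and 0.247) and Il1r2 (0.107 and 0.158) also ranked within the first 82 genes of each section. Il1r1 had 0.00718 and 0.00993, and Il1a, Il18, Il33 and Il1rl1 had at most 0.0191. Il1rap lay between these groups, with 0.0222 in A1 (rank 779) and 0.0434 in B1 (rank 518).

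In the tissue, Il1rn made up 30.1% (25.9 to 34.7) and 40.1% (37.9 to 42.3) of the Il1rn plus Il1b UMIs of inflammatory myeloid spots. Probe counts and 3′ counts are different measurements, so these shares are not set against those of the cells. Within the sections, epidermis held 76.6% and 63.1%, and skeletal muscle spots 58.2% and 55.2%. The intervals of epidermis and of the inflammatory myeloid class did not overlap in either section.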

How the data were processed

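Per the labels, the authors made the deposited counts of single cells with Cell Ranger 5.0.1, and those of the Visium sections with Space Ranger, on mm10. The deposited Moran's I values are a score computed by the authors' spatial software; its p-values, the scaled average counts and image pixel positions were not used. Cells with at least 200 genes and at most 20% mitochondrial UMIs and spots with at least 100 UMIs were kept, and marked doublets (3 and 5 cells) stayed in. Cells were gated by marker scores (minimum 0.15, margin 0.05), and spots by enrichment of markers over 2-fold in the spot and its neighbours. Counts were summed per class and sample and fitted with edgeR 4.0.16 (quasi-likelihood, TMM, sample as block, Benjamini-Hochberg) in R 4.3.3; DESeq2 1.42.0 was an alternative. Values after ± are SE. CPM intervals are exact Poisson, and the floor is 3 counts; all intervals are 95% and cover counting error only. The block is the library or section, since classes of 1 sample come from the same tissue. Named genes were all 9 members, up to 3 genes per list and planned pair with the largest change past the threshold and the same direction in both samples, and the 3 genes most alike to each member. Members and lists were chosen with earlier results of these data known. Sequences came from RefSeq, where 9 of 9 members matched.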

Additional observations from a re-analysis of the deposited data

How the results depend on the processing

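Without the replicate block, 31 calls were made across cell classes (33 with it), 2 between neutrophils and macrophages (3), 4 between MPCs and fibroblasts (4), 10 across spot classes (12) and 5 in the spot pair (5). Over the other settings the counts ranged from 28 to 47 across cell classes and from 10 to 12 across spot classes. The spot counts of 12 and 5 include Il1r2, Il1a and Il1rap of inflammatory myeloid spots. These were tested only because they were high in that class, so their part of the counts adds no support. Leaving out neutrophils is forced by a ribosomal minimum of 5%, since 32 of 43 and 17 of 21 neutrophils lie below it, and wound mesenchyme spots could not be fitted with the stricter gate or with spots of 500 UMIs or more.

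Thinning cells to 2000 UMIs put Il1b in 100% of the 38 and 20 neutrophils that were deep enough (5 and 1 shallower ones left out), in 49.8% and 35.9% of macrophages, and Il1r1 in 42% and 25.9% of mural cells. With spots of 500 UMIs or more, Il1b in the gate was at 9638 CPM (A1) and 7817 CPM (B1). In B1 it was at 1843, 470.2, 238, 185 and 236 CPM at 1, 2, 3 to 4, 5 to 8 and 9 or more steps. Il1b was thus not lower at each further distance under this setting. Il1rn in B1 was at 5332 CPM in the gate and 1515 CPM at 1 step. As a difference of log2(CPM + 1), the keratinocyte value of Il33 was -0.25 without the pooled library. Between neutrophils and macrophages, the adjusted p of Il1b ranged from 7.48e-13 to 0.513 and that of Il18 from 4.71e-05 to 0.134. The adipose call of Il1r1 ranged from 0.0309 to 0.245. The full tally covers every single member with a test, those above included, and the counts of genes called per list. In it 546 values stayed the same, 8 gained and 20 lost. For a member that refers to its side of the threshold, and for a list to a similar, larger or smaller count. With 1 sample left out there was no test. Of the values for single members, 62 stayed within 1 SE, 75 moved by more and 1, the keratinocyte value above, was counted as changing sign. A change of sign was counted only where the fitted difference was called. Others lie among the 62 and 75, such as Il1rl1 between MPCs and fibroblasts in replicate 3 alone. All values with 1 sample left out are differences of log2(CPM + 1) in the remaining sample, set against the fitted differences. The change of measure and the loss of a sample thus cannot be told apart. The causes were not tested. Depth limits Il1r1 in neutrophils and myeloid spots, and Il18, Il33 and Il1rl1 in all spots.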

Other observations

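Marrow spots were too few to fit, with 13 in section B1, where Il1b was at 2862 CPM and Il1rn at 1754 CPM. Cells outside every gate, 148 in the pooled library and 89 in replicate 3, held Il1b at 478 and 506 CPM, from 17 and 6 cells with a UMI.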
